A study of Mus musculus with 18 samples.

Results

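The interferon-stimulated genes described here are 37 genes of 23356 features in the deposited table, chosen by symbol from known interferon targets. They were followed in whole lung of male C57BL/6 mice. Wild type mice, β-arrestin 1 -/- mice and mice labelled β-arrestin 2 -/- began the exposure at 8 to 12 weeks of age and spent 4 weeks in normoxia or hypoxia, and the labels give an age of 12 to 16 weeks. Normoxia meant ordinary altitude, at about 150 mmHg of oxygen per the labels. Hypoxia was a lowered air pressure equal to 18000 feet, at about 70 mmHg of oxygen. Each of the 6 groups held 3 libraries of poly(A)-selected RNA, numbered 0 to 2. No label ties a library to an animal of its own, and the tests therefore measure how far the libraries spread, which may be technical.

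Interferons are secreted proteins that warn cells of infection. Type I interferons signal through JAK kinases to a transcription factor complex that contains STAT2 and IRF9 and binds the interferon-stimulated response element (ISRE), while interferon gamma acts mainly through the gamma-activated site (GAS). The genes they switch on sense viral RNA, block viral replication or attack the vacuoles of intracellular microbes.

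The start regions of 7 members are printed to show ISRE matches in genes that fell, rose or were not called in the data. Each stretch is the 160 bases before the start used by the RefSeq promoter table (GRCm38.p6), which for Ifit3 and Oas1a lies inside the outermost RefSeq boundary of the gene, 5′ to 3′ on the strand of the gene, with every ISRE match (GAAA, any bases NN, then GAAA, searched on both strands) in capitals.
Isg15 (chr4:156200819-156200978, minus strand): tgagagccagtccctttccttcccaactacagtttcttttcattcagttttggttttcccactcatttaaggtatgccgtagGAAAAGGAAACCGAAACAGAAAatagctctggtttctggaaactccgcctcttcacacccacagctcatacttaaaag
Ifit3 (chr19:34583369-34583528, plus strand): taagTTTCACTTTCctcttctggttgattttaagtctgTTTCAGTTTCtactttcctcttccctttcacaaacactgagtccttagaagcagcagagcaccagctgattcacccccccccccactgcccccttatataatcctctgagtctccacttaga
Oas1a (chr5:120907526-120907685, minus strand): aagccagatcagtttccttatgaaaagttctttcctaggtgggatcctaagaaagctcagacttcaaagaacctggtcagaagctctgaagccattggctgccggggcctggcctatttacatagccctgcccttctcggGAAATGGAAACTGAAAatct
Bst2 (chr8:71537473-71537632, minus strand): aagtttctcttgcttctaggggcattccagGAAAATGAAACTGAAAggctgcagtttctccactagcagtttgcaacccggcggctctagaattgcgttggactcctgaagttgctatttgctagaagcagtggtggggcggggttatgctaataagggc
Igtp (chr11:58199396-58199555, plus strand): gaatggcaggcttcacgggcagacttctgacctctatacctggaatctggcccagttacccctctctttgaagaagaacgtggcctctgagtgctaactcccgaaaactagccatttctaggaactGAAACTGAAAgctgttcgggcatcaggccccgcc
Irgm2 (chr11:58214817-58214976, plus strand): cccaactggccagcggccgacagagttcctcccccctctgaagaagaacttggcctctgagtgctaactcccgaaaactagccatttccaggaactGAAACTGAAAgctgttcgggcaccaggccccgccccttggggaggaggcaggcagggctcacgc
Gbp7 (chr3:142530176-142530335, plus strand): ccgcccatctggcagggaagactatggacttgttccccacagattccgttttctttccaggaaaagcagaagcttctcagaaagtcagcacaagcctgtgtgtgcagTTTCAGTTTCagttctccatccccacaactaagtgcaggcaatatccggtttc

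The Isg15 stretch held 3 overlapping ISRE matches, and those of Oas1a and Bst2 held 2 each. Ifit3 held 2 in reverse orientation, 156 and 122 bases before that start. The neighbouring GTPase genes Igtp and Irgm2 shared an identical run of 61 bases in their 300-base windows. RefSeq windows from 250 bases before to 50 bases after the start were matched by symbol for 26 of the 37 members. An ISRE match was present in 16 of these 26 (61.5%), against 3.99% of 27025 genes with a window, and the other 10, Ifi44 and Oasl2 among them, held none. A GAS match (TTCNNNGAA, which reads the same on both strands) was present in 8 of 26 (30.8%), against 9.55% of all genes. Both motifs were found in 5 members (Oas1a, Bst2, Igtp, Irgm2 and Gbp7), which is 19.2% against 0.614% of all genes. In Bst2 the GAS match overlapped an ISRE match. Of the 7 GTPase genes with a window, 6 held an ISRE match and 3 held both motifs. A match describes letters and is not a measured binding site.

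**Figure D1:**
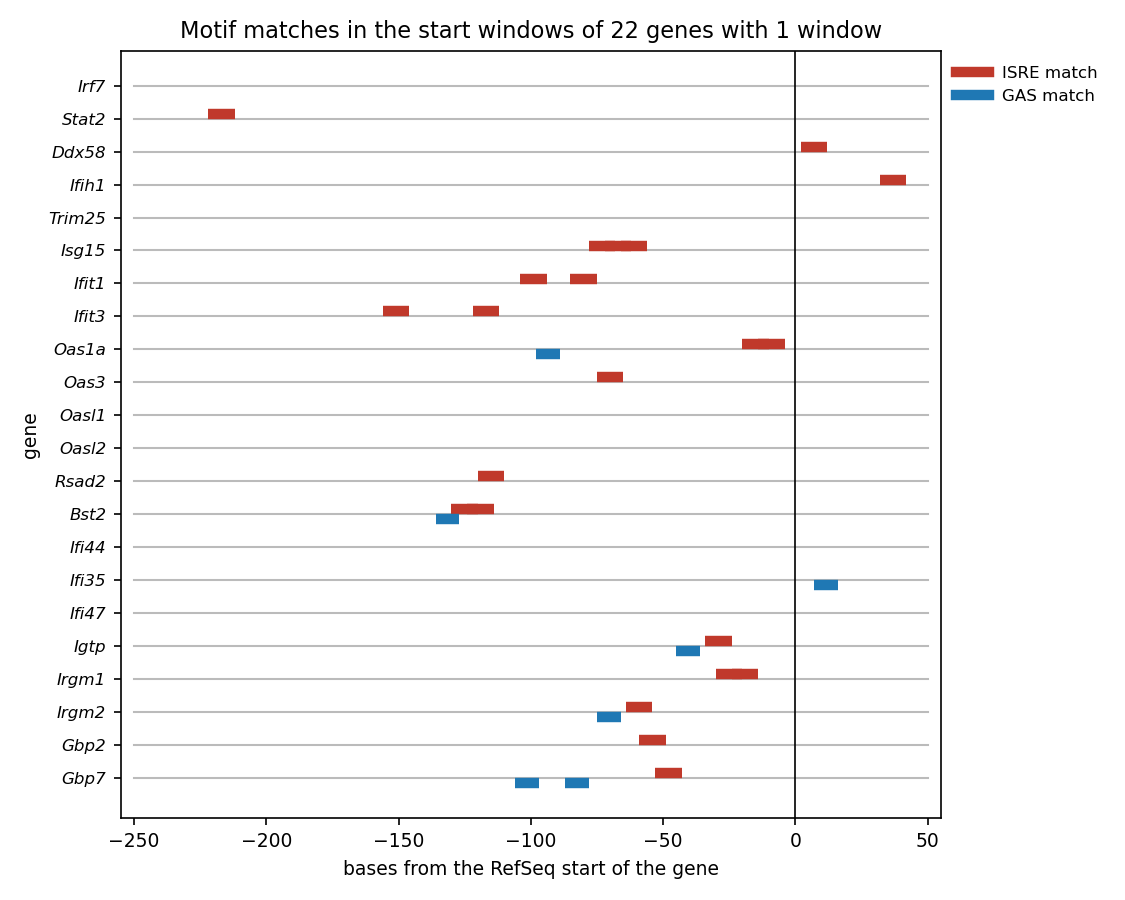
Positions of ISRE matches (red) and GAS matches (blue) in the windows of the 22 members with a single RefSeq window, from 250 bases before to 50 bases after the start (x axis, bases). The windows of Ifi44, Oasl1 and Oasl2 are among those with neither motif.

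Library totals ran from 16806806 to 25980876 estimated fragments, lowest in β-arrestin 1 -/- hypoxia replicate 2. Levels below are CPM, the fragments of a gene relative to the library total after scaling between libraries. Summed markers of alveolar epithelium (8 genes, 10534 to 18990 CPM) and of endothelium (8 genes, 4523 to 6903 CPM) were present in every library. Arrb1 stood at 472 ± 7.35 CPM (SD, n = 3) in wild type normoxia and at 104 ± 15.3 CPM in β-arrestin 1 -/- normoxia, and in hypoxia at 369 ± 57.9 and 87.7 ± 3.62 CPM (adjusted p = 4.01e-08 and 8.28e-08 by edgeR). Arrb2 had 40.7 ± 5.19 CPM in normoxia and 34.4 ± 3.57 CPM in hypoxia where the label is β-arrestin 2 -/-, against 32.3 ± 2.55 and 39.0 ± 5.02 CPM in wild type. It was not called lower under that label in either condition (0.33 ± 0.20 and -0.18 ± 0.20 on the log2 scale, adjusted p = 0.256 and 0.821), and every direction given for these libraries rests on the label alone. Arrb1 stood at 289 ± 28.6 CPM in labelled β-arrestin 2 -/- normoxia, lower than in wild type (-0.70 ± 0.12, adjusted p = 0.00435), and at 364 ± 5.74 CPM in hypoxia (-0.02 ± 0.12, adjusted p = 0.986).

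All 37 members had fragments in every library and passed the filter on low counts. In wild type normoxia their levels per length, in FPKM (fragments relative to transcript length and library total), ran from 0.324 ± 0.267 (SD, n = 3) for Oas3 to 226 ± 24.2 for Bst2, a membrane protein that tethers budding viruses. After Bst2 came Irf1, a transcription factor induced by interferon gamma, at 67.0 ± 6.96 FPKM, then Ifi35 at 51.5 ± 3.69 FPKM and the guanylate-binding protein gene Gbp2 at 36.9 ± 0.936 FPKM. The library ranges of these 4 genes did not overlap. At the low end Oasl1 stood at 1.34 ± 0.429 FPKM, Mx2 at 1.32 ± 0.124 FPKM and Mx1 at 0.469 ± 0.205 FPKM, and neither Oasl1 and Mx2 nor Mx1 and Oas3 differed beyond their spread. RefSeq lists Mx1 and Mx2 as transcribed pseudogenes in this assembly.

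**Figure D2:**
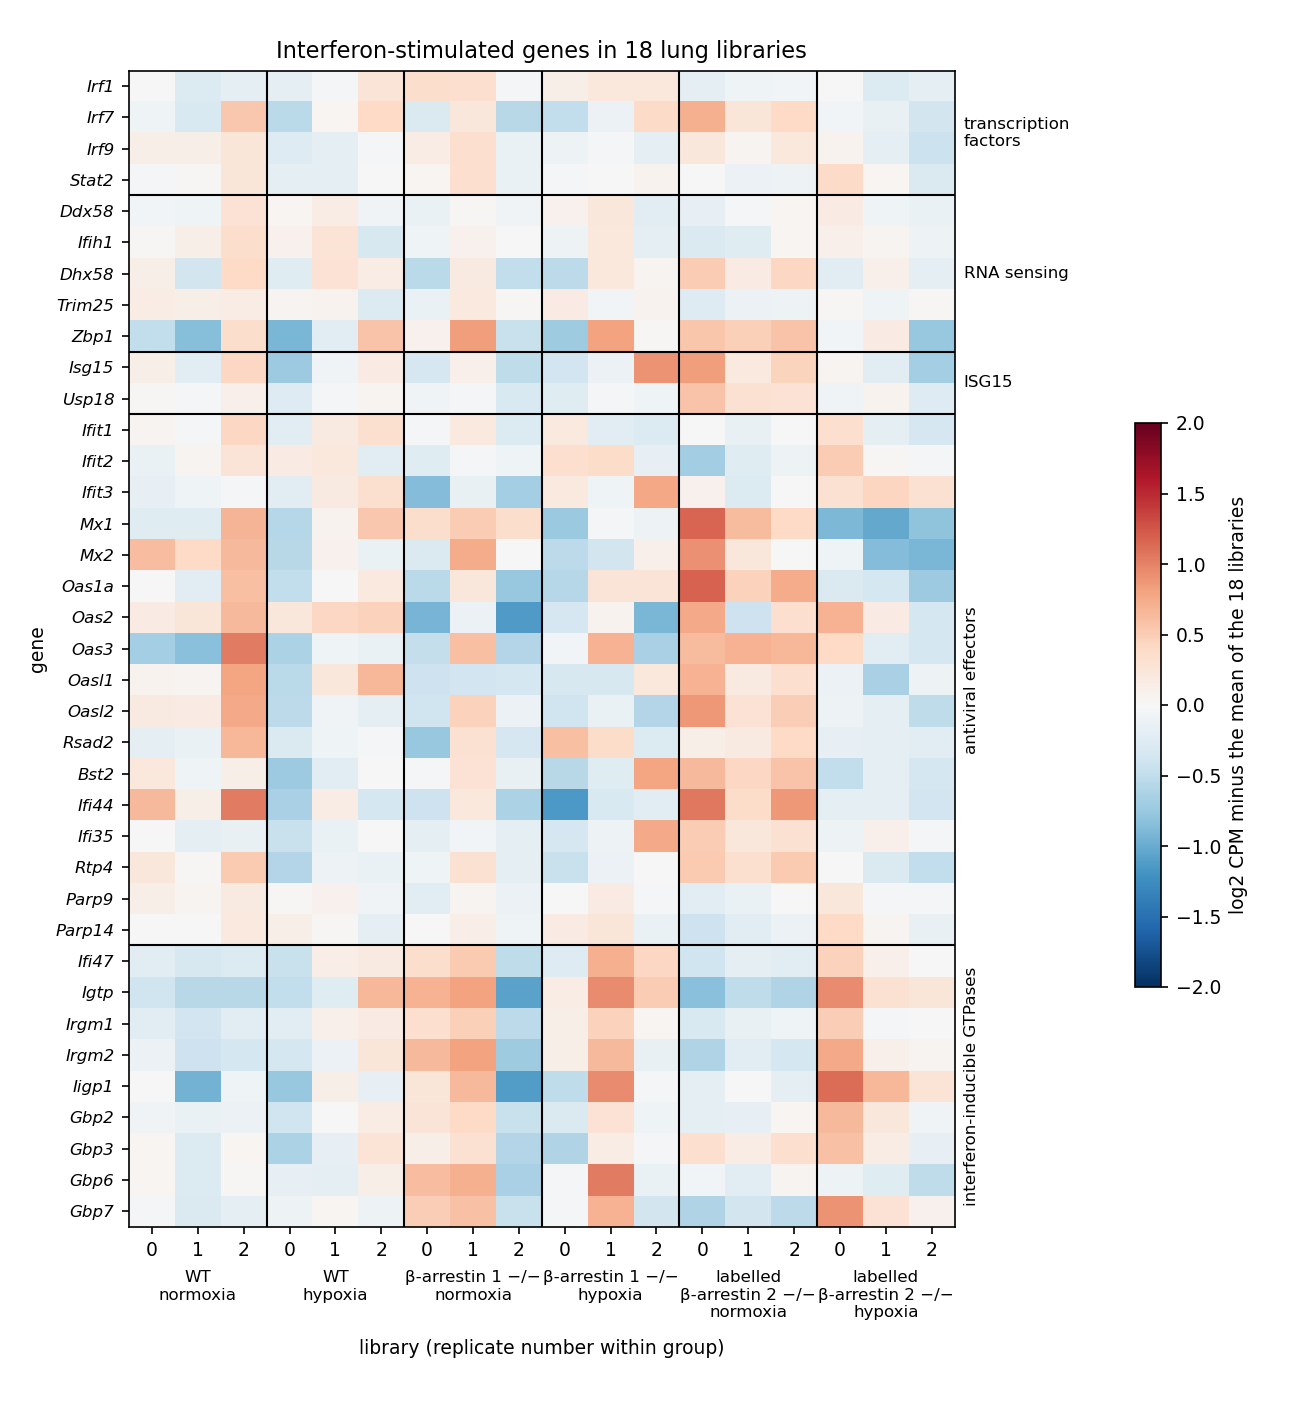
Level of each of the 37 members (rows, grouped by role) in each of the 18 libraries (columns, by group and replicate number), as log2 CPM minus the mean of the gene over the 18 libraries, red higher and blue lower. Many antiviral effectors are red in labelled β-arrestin 2 -/- normoxia, and 7 of the 9 GTPases have their lowest value in β-arrestin 1 -/- normoxia replicate 2.

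Hypoxia was compared with normoxia within each genotype. Under the β-arrestin 2 -/- label, 10 of the 37 members changed, of which 8 fell and 2 rose (edgeR quasi-likelihood test, adjusted over 15388 genes by Benjamini-Hochberg, threshold 0.05). Of all genes, 21.9% were called in this comparison, 10.8% lower and 11.1% higher, so the 27% of members called is near the background. By role, 7 of 17 antiviral effectors fell and 0 rose, while 2 of 9 interferon-inducible GTPases rose and 0 fell. The GTPase role here holds only immunity-related GTPase and guanylate-binding protein genes. The interferon-inducible GTPases Mx1 and Mx2, which both fell, are counted among the effectors. The difference between roles was not tested. Each of these calls except that of Mx1 was lost when some single library was left out, as given below. The libraries of both groups did not overlap for 16 members that were lower in hypoxia and 9 that were higher, against 25.3% and 22.6% of all genes. The median log2 change was -0.71 for the effectors and 0.46 for the GTPases, against -0.04 for all genes tested. In whole lung, fewer cells of a type and less RNA per cell cannot be told apart.

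**Figure D3:**
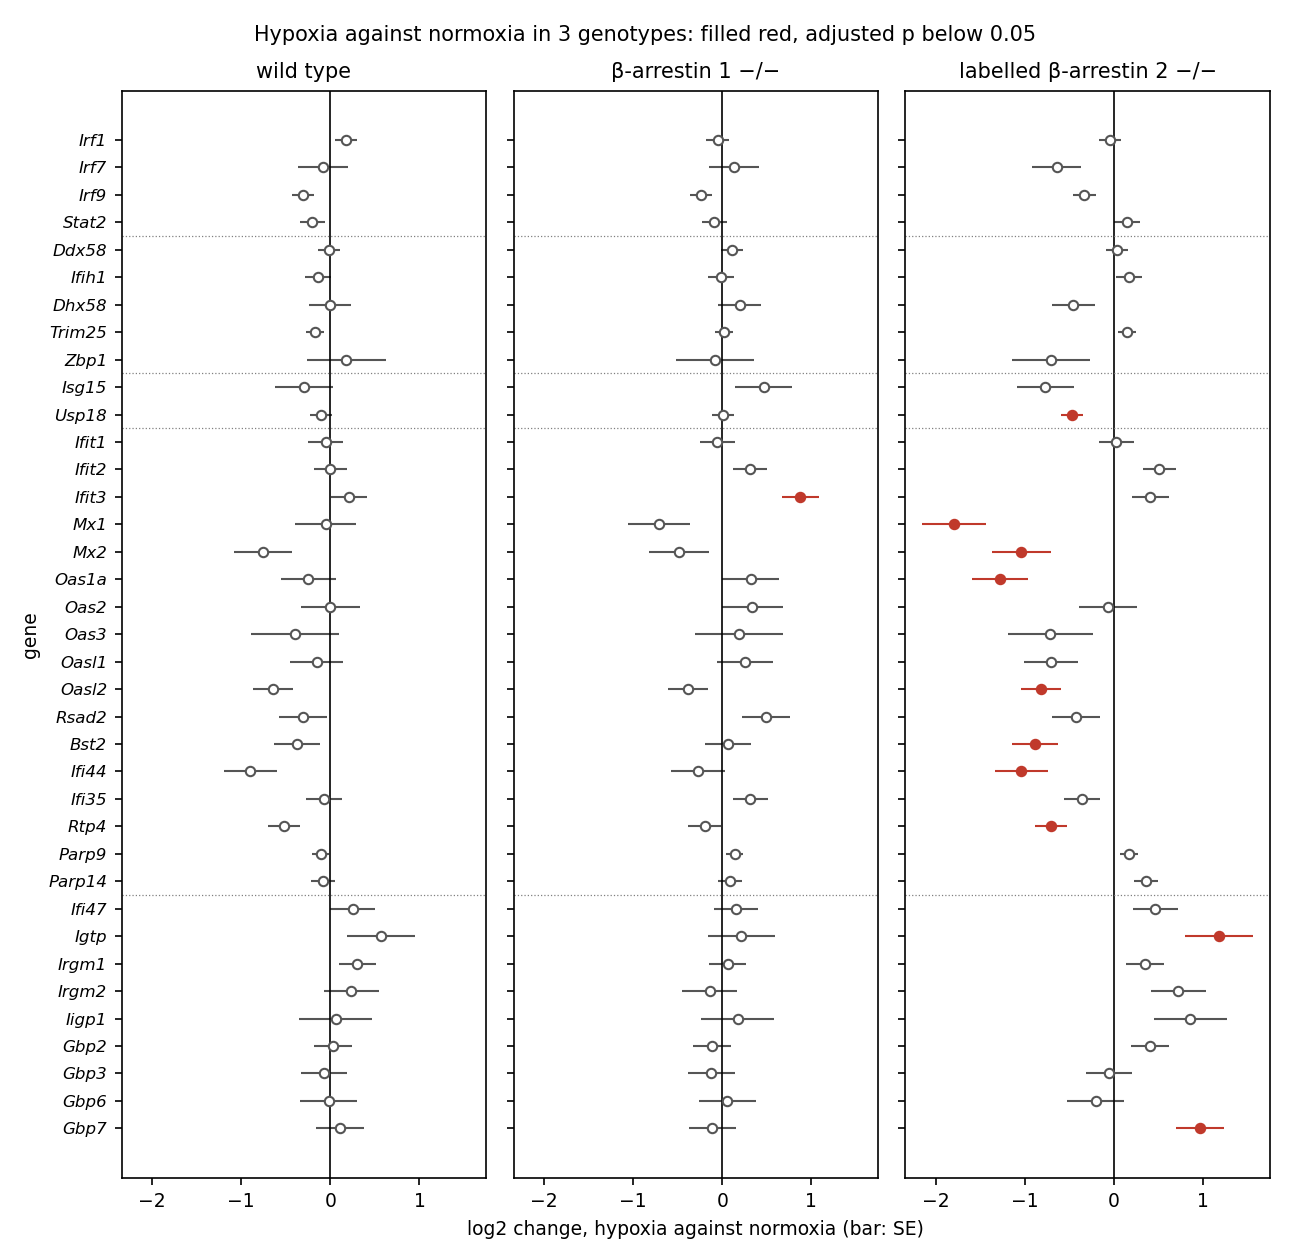
Log2 change of each member in hypoxia against normoxia (x axis, bar: SE) in wild type, β-arrestin 1 -/- and labelled β-arrestin 2 -/- lung, with filled red points for members called. No point is filled in wild type, Ifit3 alone is in β-arrestin 1 -/-, and 10 are in the labelled β-arrestin 2 -/- panel.

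Mx1, a dynamin-like antiviral GTPase, had the largest change of the 37. It stood at 2.83, 1.92 and 1.61 CPM in the labelled β-arrestin 2 -/- normoxia libraries and at 0.607, 0.549 and 0.653 CPM in hypoxia. The hypoxia values were the 3 lowest of the 18 libraries. Mx1 fell by 1.80 ± 0.36 on the log2 scale (SE, adjusted p = 0.00322), on 40 to 54 fragments a library in normoxia and 14 to 15 in hypoxia. Its paralogue Mx2 stood at 4.25, 2.62 and 2.22 CPM in normoxia and at 2.08, 1.18 and 1.13 CPM in hypoxia, with replicate 0 the highest of each group. Mx2 fell by 1.04 ± 0.33 (adjusted p = 0.0359), a call lost without normoxia replicate 0 or 1 or hypoxia replicate 1 or 2 (adjusted p = 0.174, 0.0558, 0.117 and 0.124).

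Oas1a encodes an oligoadenylate synthetase, which switches on RNase L when it meets double-stranded RNA. Its levels were 10.2, 6.15 and 7.54 CPM in labelled β-arrestin 2 -/- normoxia and 3.64, 3.49 and 2.66 CPM in hypoxia. No libraries overlapped, and Oas1a fell by 1.28 ± 0.31 on the log2 scale (adjusted p = 0.0105; 0.0511 without normoxia replicate 0). The related gene Oasl2 stood at 89.9, 60.1 and 69.4 CPM in normoxia and at 46.1, 43.6 and 34.7 CPM in hypoxia. It fell by 0.82 ± 0.23 (adjusted p = 0.0185; 0.092 without normoxia replicate 0 and 0.0763 without hypoxia replicate 2). The other 3 members of this family were not called, with log2 changes of -0.72 ± 0.48 for Oas3, -0.71 ± 0.30 for Oasl1 and -0.07 ± 0.33 for Oas2. Oas2 was the member of the 5 whose groups overlapped, from 7.32 to 16.7 CPM in normoxia and from 7.71 to 15.9 CPM in hypoxia.

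Bst2 stood at 212, 181 and 201 CPM in labelled β-arrestin 2 -/- normoxia and at 96.0, 117 and 106 CPM in hypoxia. The groups did not overlap, and Bst2 fell by 0.89 ± 0.26 on the log2 scale (adjusted p = 0.0239; lost without normoxia replicate 0, 0.0732, or hypoxia replicate 0 or 2, 0.0929 and 0.0653). Rtp4, a chaperone for membrane receptors, had 42.5, 37.1 and 42.7 CPM in normoxia and 29.6, 24.2 and 21.1 CPM in hypoxia. It fell by 0.71 ± 0.18 (adjusted p = 0.0124; 0.057 without hypoxia replicate 2). Ifi44 had 18.8, 11.7 and 16.7 CPM in normoxia and 7.97, 8.0 and 6.88 CPM in hypoxia, with the hypoxia libraries close together. Ifi44 fell by 1.04 ± 0.30 (adjusted p = 0.0214), and the call was lost when any library of the comparison except normoxia replicate 1 was left out (adjusted p from 0.0506 to 0.0847). The Ifi44 window held neither motif, whereas those of Bst2 and Oas1a held both.

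Isg15 encodes a ubiquitin-like tag put on proteins after interferon, and Usp18 removes the tag and damps signalling at the type I receptor. Usp18 stood at 42.6, 35.5 and 34.9 CPM in labelled β-arrestin 2 -/- normoxia and at 27.3, 30.1 and 24.0 CPM in hypoxia. The normoxia values were the 3 highest of the 18 libraries, and Usp18 fell by 0.47 ± 0.12 on the log2 scale (adjusted p = 0.0123; 0.067 without normoxia replicate 0 and 0.0583 without hypoxia replicate 2). Isg15, with 16.8, 10.7 and 12.9 CPM in normoxia and 9.71, 8.12 and 5.79 CPM in hypoxia, had groups that did not overlap and a log2 change of -0.77 ± 0.32 that was not called (adjusted p = 0.0941).

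Both called genes of the GTPase role had the opposite sign to the called effectors, which include the GTPases Mx1 and Mx2. Igtp, an immunity-related GTPase of vacuole membranes, stood at 32.2, 40.1 and 37.7 CPM in labelled β-arrestin 2 -/- normoxia and at 110.4, 71 and 67.5 CPM in hypoxia. It rose by 1.18 ± 0.38 on the log2 scale (adjusted p = 0.039). Gbp7, a guanylate-binding protein gene, stood at 54.0, 63.6 and 57.4 CPM in normoxia and at 153, 100.5 and 87.5 CPM in hypoxia. It rose by 0.96 ± 0.27 (adjusted p = 0.0205; 0.0723 without normoxia replicate 0). In both genes replicate 0 was the highest hypoxia library, and neither was called without it (adjusted p = 0.161 for Igtp and 0.117 for Gbp7). The Igtp call was lost when any one of the 6 libraries was left out. The uncalled GTPases had log2 changes of 0.86 ± 0.41 for Iigp1, 0.72 ± 0.31 for Irgm2, 0.46 ± 0.25 for Ifi47, 0.40 ± 0.21 for Gbp2, 0.35 ± 0.21 for Irgm1, -0.06 ± 0.26 for Gbp3 and -0.21 ± 0.32 for Gbp6. Hypoxia replicate 0 held the highest value of all 18 libraries for 5 of the 9 GTPases. The share of all genes with their highest value in this library was not taken.

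**Figure D4:**
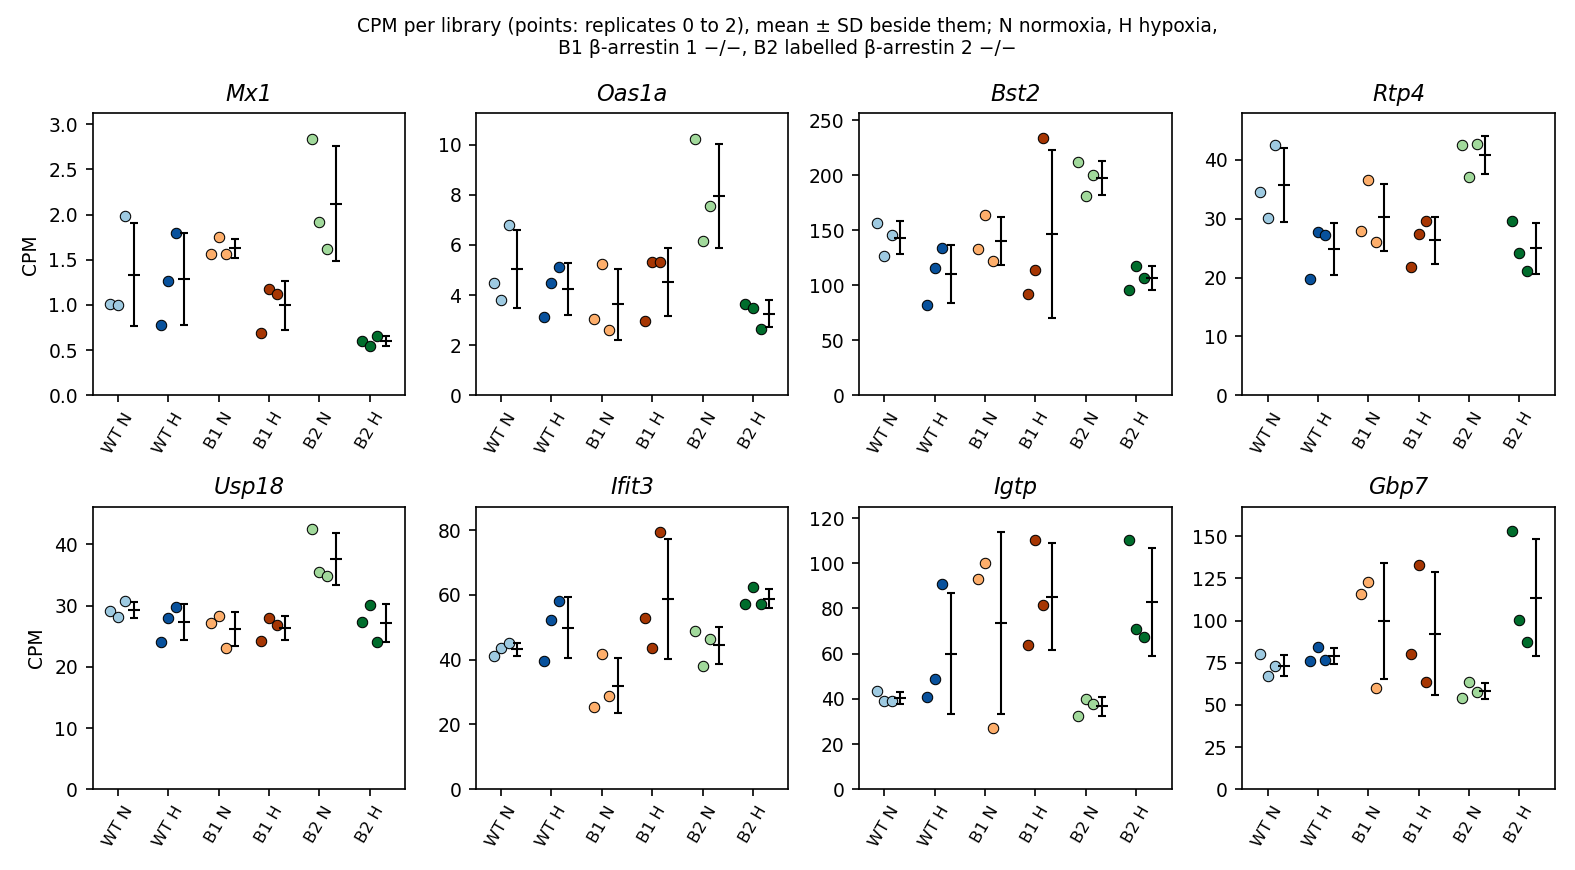
CPM of 8 members in each library (points, replicates 0 to 2 from left to right; bars, mean ± SD of 3; linear axes from 0) in the 6 groups. Mx1, Oas1a, Bst2, Rtp4 and Usp18 show labelled β-arrestin 2 -/- normoxia above hypoxia without overlap, and Igtp and Gbp7 show the reverse.

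The remaining effectors were not called in the labelled β-arrestin 2 -/- comparison. Ifit1, Ifit2 and Ifit3 encode proteins that bind viral RNA, and their log2 changes were 0.02 ± 0.20, 0.51 ± 0.19 (adjusted p = 0.064) and 0.41 ± 0.21. Rsad2 (viperin) stood at -0.43 ± 0.27 and Ifi35 at -0.36 ± 0.20. The ADP-ribosyltransferase genes Parp9 and Parp14 stood at 0.17 ± 0.10 and 0.36 ± 0.14. The effectors called by edgeR all fell, and the Ifit and Parp genes had values above 0. The authors' deposited table also calls Ifit2 in this comparison.

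None of the 4 transcription factors was called. Irf7, the main amplifier of type I interferon production, had 33.8, 24.3 and 27.2 CPM in normoxia and 19.9, 18.6 and 16.0 CPM in hypoxia, without overlap, and a log2 change of -0.65 ± 0.28 (adjusted p = 0.107). Irf9 stood at -0.33 ± 0.12 (adjusted p = 0.0663), Stat2 at 0.15 ± 0.14 and Irf1 at -0.04 ± 0.13. None of the 5 RNA and nucleic acid sensing genes was called. The receptors Ddx58 (RIG-I) and Ifih1 (MDA5) stood at 0.04 ± 0.12 and 0.17 ± 0.15, their relative Dhx58 (LGP2) at -0.46 ± 0.24, the RIG-I ubiquitin ligase gene Trim25 at 0.15 ± 0.10 and Zbp1, a sensor of Z-form nucleic acid, at -0.71 ± 0.44.

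The count of 10 depended on single libraries. It was 2 (Mx1 and Rtp4) without labelled β-arrestin 2 -/- normoxia replicate 0, which held the highest value of all 18 libraries for 9 members, and 4 without hypoxia replicate 2. Without both libraries of lowest total it was 6. The share of all genes called in each setting, or highest in that normoxia library, is not given here. These counts are therefore not read as particular to the members. The authors' deposited table calls 14 members in the same comparison, 5 higher and 9 lower, of which 9 were called in the same direction here. Ifit2, Iigp1, Irf7, Irgm2 and Isg15 were called by the authors alone, and Usp18 was called here alone. The share of all genes that the authors call was not taken, so the 14 cannot be set against the 21.9% found by edgeR.

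Cell type markers changed between the same libraries. Of all genes, 10.8% were called lower and 11.1% higher in labelled β-arrestin 2 -/- hypoxia. There 4 of 10 markers of conventional dendritic cells and monocytes fell, but the summed level of the list did not fall with them. It was 309.7 to 340.4 CPM in normoxia, and in hypoxia 286 CPM in replicate 0 and 482 and 363 CPM in replicates 1 and 2. Mesothelial markers fell for 4 of 5 genes (564 to 748 and 259 to 394 CPM), and 2 of 7 neutrophil markers rose (23.4 to 28.3 and 50.6 to 139.6 CPM). Of T and NK cell markers 0 of 12 were called (48.4 to 65.5 and 50.7 to 69.9 CPM), and of plasmacytoid dendritic cell markers 0 of 5 tested (228 to 297 and 249 to 284 CPM). Labelled normoxia replicate 0, on which several member calls rest, had the highest summed cardiac muscle markers of its group (6227 CPM against 934 and 497 CPM), the highest adipocyte markers (335 against 72.7 and 65.0 CPM) and the highest airway secretory markers (11463 against 7527 and 5395 CPM). Its endothelial markers were the lowest of all 18 libraries (4523 CPM). Summed endothelial markers did not overlap between labelled normoxia and hypoxia (4523 to 5676 and 5963 to 6274 CPM), and 2 of 8 rose. Those of alveolar macrophages did not overlap either (130 to 145 and 159 to 215 CPM). None of these markers was at 0 in a whole group. Their part in the values of the interferon-stimulated genes was not tested.

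In wild type, 0 of 37 members were called between hypoxia and normoxia by edgeR, against 4.76% of all genes (2.85% higher, 1.92% lower), with 5 members at an unadjusted p below 0.05, 1 called by DESeq2 (Ifi44) and 0 by limma on FPKM. Of the 17 antiviral effectors 14 had a negative log2 change, with a median of -0.15, against 0.002 for all genes tested. The share of all genes with a negative change was not taken, and a fall of the effectors as a set was not tested. Nor was the share of all genes at an unadjusted p below 0.05 taken, in this or the later comparisons. Libraries did not overlap for 1 member that was higher in hypoxia (Irgm1) and 5 that were lower (Irf9, Mx2, Oasl2, Rtp4 and Trim25), against 13.3% and 11.5% of all genes. Ifi44 stood at 14.2, 9.80 and 18.6 CPM in normoxia and at 5.74, 10.1 and 7.03 CPM in hypoxia, groups that overlapped (-0.90 ± 0.30, adjusted p = 0.0992). Rtp4 stood at 34.5, 30.1 and 42.5 CPM and at 19.7, 27.7 and 27.1 CPM (-0.52 ± 0.18, adjusted p = 0.114). Oasl2 stood at 56.1, 55.3 and 83.3 CPM and at 34.2, 47.3 and 43.3 CPM (-0.64 ± 0.23, adjusted p = 0.12). These are the 3 members of smallest p, and the authors' deposited table calls all of them lower and Igtp higher. Igtp stood at 43.7, 39.1 and 38.9 CPM in normoxia and at 40.9, 48.6 and 90.6 CPM in hypoxia, with replicate 2 far above the rest of its group (0.57 ± 0.38, adjusted p = 0.461). In the same comparison 5 of 12 T and NK cell markers rose (21.8 to 49.2 CPM in normoxia, 53.8 to 96.4 CPM in hypoxia), as did 4 of 8 B and plasma cell markers (34.7 to 76.3 and 77.5 to 287 CPM). Summed markers were also higher in hypoxia without overlap for cardiac muscle (73.5 to 395 and 955 to 1724 CPM, 0 of 8 called), alveolar macrophages (69.5 to 146 and 169 to 196 CPM, 1 of 7 rose) and adipocytes (19.3 to 57.0 and 84.4 to 107 CPM, 1 of 6 tested rose, with Lep and Ucp1 at 0 in normoxia). The part of these cells in the values of the members was not tested.

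In β-arrestin 1 -/- lung, 1 of 37 members rose in hypoxia and 0 fell, against 1.84% of all genes higher and 1.11% lower (2.95% in all). Ifit3 stood at 25.5, 41.7 and 28.8 CPM in normoxia and at 53.0, 43.6 and 79.5 CPM in hypoxia. All hypoxia libraries were above all normoxia libraries, and Ifit3 rose by 0.87 ± 0.21 on the log2 scale (adjusted p = 0.0326). Without hypoxia replicate 2, the library of lowest total, the log2 change was 0.60 (adjusted p = 0.118), and without normoxia replicate 0 or 2 it was 0.73 (adjusted p = 0.167) or 0.80 (adjusted p = 0.133). Its near-identical copy I830012O16Rik, with which reads can be shared, stood at 0.18 ± 0.21 (adjusted p = 0.673), and the sum of both genes was not called (0.74, adjusted p = 0.0545), so the Ifit3 value is uncertain. Oasl1 was the other member higher without overlap and Mx1 (-0.71 ± 0.35, adjusted p = 0.298) the only one lower, against 11.4% and 9.85% of all genes. Hypoxia replicate 2 held the highest value of all 18 libraries for Bst2, Ifi35, Isg15 and Ifit3. For Bst2 the libraries stood at 92.2, 114 and 234 CPM. In this comparison 4 of 7 neutrophil markers rose (16.1 to 46.8 CPM in normoxia, 126 to 334 CPM in hypoxia). Summed markers of conventional dendritic cells and monocytes were also higher in hypoxia without overlap (292 to 328 and 459 to 689 CPM). So were those of alveolar macrophages (110 to 123 and 161 to 181 CPM) and endothelium (5676 to 6349 and 6393 to 6903 CPM). The part of these cells in the member values was not tested.

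The GTPases varied widely between libraries of β-arrestin 1 -/- lung. In normoxia Igtp stood at 93.0, 100.1 and 27.2 CPM, Irgm2 at 171, 190.1 and 66.3 CPM and Iigp1 at 58.0, 76.8 and 22.7 CPM. Replicate 2 was the low library each time, and held the lowest value of all 18 libraries for 7 of the 9 GTPases and 11 of the 37 members. The share of all genes with their lowest value in this library was not taken. In hypoxia replicate 1 was the high one for Iigp1, at 34.5, 95.1 and 48.0 CPM, and for Gbp6, at 8.19, 17.5 and 7.63 CPM.

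**Figure D5:**
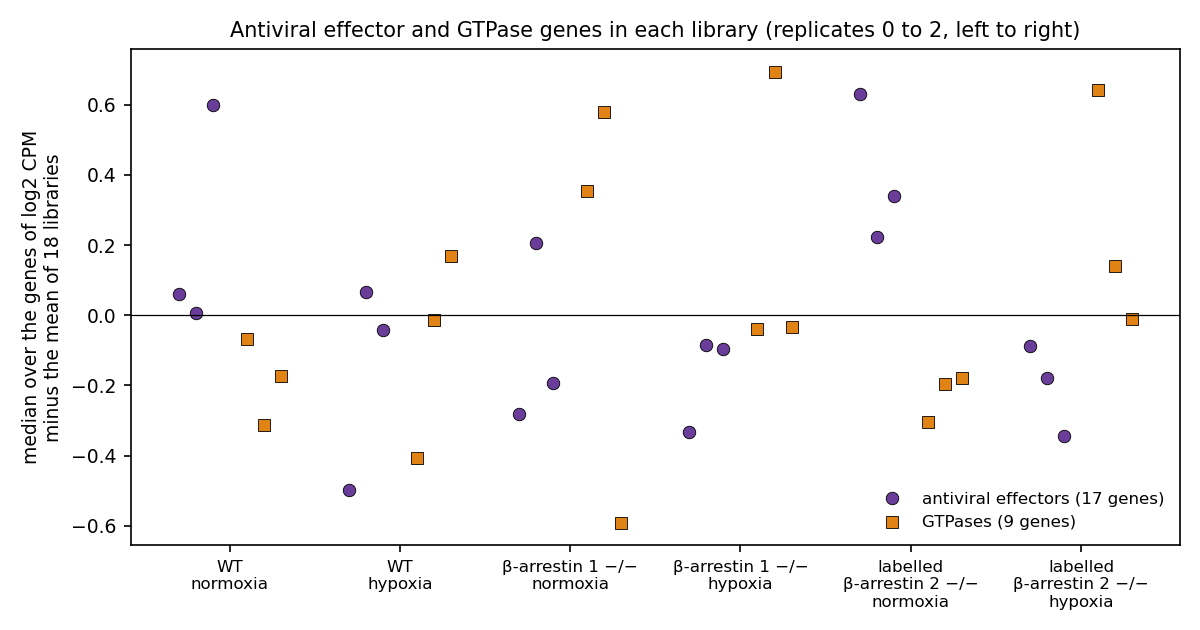
Median over the 17 antiviral effectors (circles) and over the 9 GTPases (squares) of log2 CPM minus the mean of the 18 libraries, in each library by group (replicates 0 to 2 from left to right). Effector medians are above 0 in the 3 labelled β-arrestin 2 -/- normoxia libraries and below 0 in the 3 hypoxia libraries, and GTPase medians in β-arrestin 1 -/- normoxia run from -0.59 to 0.58.

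The difference between hypoxia responses was tested directly. Between labelled β-arrestin 2 -/- and wild type lung it was called for 1 member, Mx1, which was lower, against 2.56% of all genes called lower and 3.49% higher (6.05% in all). Mx1 stood at 1.01, 1.00 and 1.99 CPM in wild type normoxia and at 0.782, 1.27 and 1.80 CPM in wild type hypoxia, groups that overlapped. The labelled response minus the wild type response was -1.75 ± 0.49 on the log2 scale (adjusted p = 0.048), and the call was lost in 18 of 25 other settings. Of the other members called in labelled hypoxia, Oas1a stood at -1.04 ± 0.44 (adjusted p = 0.152) and Gbp7 at 0.85 ± 0.38 (adjusted p = 0.169), and a different response was not shown for any of them. Between β-arrestin 1 -/- and wild type it was called for 0 members by edgeR, DESeq2 and limma, against 0% of all genes by edgeR, with 1 member, Ifit3, at an unadjusted p below 0.05 (0.67 ± 0.29, adjusted p = 0.807). Next by p were Rsad2 (0.80 ± 0.38, adjusted p = 0.807) and Parp9 (0.25 ± 0.14, adjusted p = 0.807).

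Genotypes were then compared within each exposure, in tests that share wild type libraries with each other and with the wild type hypoxia comparison. In normoxia 0 members were called between labelled β-arrestin 2 -/- and wild type lung by edgeR, against 9.49% of all genes (4% higher, 5.49% lower), with 7 members at an unadjusted p below 0.05, 2 called by DESeq2 (Usp18 higher and Trim25 lower) and 0 by limma. Libraries did not overlap for 5 members higher and 4 lower, against 22% and 22.1% of all genes. The authors' deposited table calls 2 members here, Bst2 and Ifi35, both higher. Usp18 stood at 29.1, 28.2 and 30.8 CPM in wild type and at 42.6, 35.5 and 34.9 CPM under the label (0.36 ± 0.12, adjusted p = 0.0634). Trim25 stood at 133, 129 and 132 CPM and at 100.04, 110.0 and 111 CPM (-0.29 ± 0.10, adjusted p = 0.0693), and Parp9 at 57.2, 54.6 and 59.4 CPM and at 45.0, 47.8 and 52.7 CPM (-0.23 ± 0.10, adjusted p = 0.121). With the spread estimated from these groups alone 4 members were called, 3 without β-arrestin 1 -/- hypoxia replicate 2 and 1 without wild type hypoxia replicate 2, libraries that enter here through the shared estimate of spread.

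In hypoxia 0 members were called between labelled β-arrestin 2 -/- and wild type lung by edgeR, DESeq2 and limma, against 0.923% of all genes by edgeR (0.344% higher, 0.578% lower), with 2 members at an unadjusted p below 0.05. The smallest p values were those of Mx1 (-1.09 ± 0.36, adjusted p = 0.195), Iigp1 (0.96 ± 0.41, adjusted p = 0.361) and Gbp7 (0.52 ± 0.27, adjusted p = 0.489). These were also the members without overlap, 2 higher and 1 lower, against 8.39% and 9.07% of all genes. The authors' deposited table calls 3 members here, Gbp7, Igtp and Iigp1, all higher. Mx1 ran from 0.549 to 0.653 CPM under the label and from 0.782 to 1.80 CPM in wild type, and Gbp7 from 87.5 to 153 and from 76.3 to 84.3 CPM.

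Against wild type, β-arrestin 1 -/- lung had 0 members called by edgeR, DESeq2 and limma in either exposure. Of all genes edgeR called 0.221% in normoxia (0.078% higher, 0.143% lower) and 0.201% in hypoxia (0.0845% higher, 0.117% lower), and 7 and 0 members had an unadjusted p below 0.05. Oas2 had the smallest p in both. In normoxia it stood at 11.0, 11.6 and 15.5 CPM in wild type and at 5.09, 9.03 and 4.44 CPM in β-arrestin 1 -/- lung (-1.04 ± 0.34, adjusted p = 0.312). In hypoxia it stood at 11.5, 13.2 and 13.5 CPM and at 7.78, 10.3 and 5.19 CPM (-0.70 ± 0.33, adjusted p = 0.443). The groups did not overlap in either exposure, and the authors' deposited table calls Oas2 lower in both. In normoxia the authors call 5 members, Gbp7, Ifi44, Igtp, Irgm2 and Oas2 (3 higher, 2 lower). In hypoxia they call 3, Igtp, Iigp1 and Oas2 (2 higher, 1 lower). Without overlap there were 0 members higher and 3 lower in normoxia (against 10.8% and 11.8% of all genes) and 0 higher and 1 lower in hypoxia (against 4.82% and 4.97%). Next in normoxia were Ifi44 (-0.89 ± 0.30, adjusted p = 0.328) and Irf1 (0.38 ± 0.13, adjusted p = 0.328). In hypoxia they were Ifi35 (0.36 ± 0.20, adjusted p = 0.502) and Bst2 (0.41 ± 0.26, adjusted p = 0.548), both of which turned negative without β-arrestin 1 -/- hypoxia replicate 2.

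The 37 members lie on 14 chromosomes (mm10), and some are neighbours. Of the 37, 8 are on chromosome 11, which also carries Arrb2 (70432580 to 70440828), and 6 on chromosome 5, including the 5 Oas and Oasl members. Mx1 (97447035 to 97462906) and Mx2 (97536081 to 97560901) are among 5 on chromosome 16. Igtp (58199556 to 58207592) and Irgm2 (58214977 to 58222783) are neighbours on chromosome 11, and Gbp7 (142530338 to 142550083) lies on chromosome 3 with Gbp2, Gbp3 and Ifi44.

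Interferon genes themselves were barely measured. Of 21 ligand genes listed, 19 were matched and 0 passed the filter. Ifng, which encodes interferon gamma, had 40 fragments over the 18 libraries and at most 7 in one. Ifnz had 12 fragments, Ifnk 8, and Ifna4 and Ifnab 1 each. The other 14 (Ifnb1, Ifne, Ifnl2, Ifnl3, Ifna1, Ifna2, Ifna5, Ifna6, Ifna7, Ifna9, Ifna11, Ifna12, Ifna13 and Ifna14) were listed at 0 in every library, and a difference was not detectable at this depth.

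In labelled β-arrestin 2 -/- hypoxia 28 of 106 tested genes of the other pathway lists were called (26.4%, against 21.9% of all genes, 10.8% lower and 11.1% higher). Of 10 genes listed for interferon receptors and their signalling, 2 rose and 1 fell in labelled β-arrestin 2 -/- hypoxia. Jak2, a kinase of the interferon gamma receptor, rose by 0.46 ± 0.10 (adjusted p = 0.00664), Ifnar1, a chain of the type I receptor, rose by 0.28 ± 0.09 (adjusted p = 0.0279), and Ifngr2, a chain of the interferon gamma receptor, fell by 0.29 ± 0.08 (adjusted p = 0.0162). In wild type 1 of 10 fell, the lambda receptor gene Ifnlr1, by 0.39 ± 0.10 (adjusted p = 0.0433), and in β-arrestin 1 -/- lung 0 of 10 were called. Under the label in normoxia, Ifnlr1 (-0.58 ± 0.11, adjusted p = 0.00584) and Ifnar1 (-0.34 ± 0.09, adjusted p = 0.0243) were lower than in wild type, against 5.49% of all genes.

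Among 15 genes of nucleic acid sensing outside the members, 3 fell and 1 rose in labelled β-arrestin 2 -/- hypoxia. Of all genes, 10.8% were called lower and 11.1% higher. Irf5, a transcription factor downstream of Toll-like receptors, stood at 38.1, 34.6 and 38.0 CPM in normoxia and at 13.8, 15.9 and 14.5 CPM in hypoxia and fell by 1.32 ± 0.15 (adjusted p = 9.85e-05). Tmem173 (STING), the adaptor of DNA sensing, fell by 0.53 ± 0.12 (adjusted p = 0.00607), Myd88 by 0.28 ± 0.09 (adjusted p = 0.0332), and Mavs, the adaptor of the RIG-I family, rose by 0.43 ± 0.09 (adjusted p = 0.00451). Of 10 negative regulators, Ptpn2 fell by 0.69 ± 0.12 (adjusted p = 0.00166) and Socs3 by 0.73 ± 0.20 (adjusted p = 0.0174). In normoxia Irf5 (0.85 ± 0.15, adjusted p = 0.00491), Ptpn2 (0.70 ± 0.12, adjusted p = 0.00494) and Socs3 (0.70 ± 0.20, adjusted p = 0.0387) were higher under the label than in wild type, against 4% of all genes. These comparisons share the labelled normoxia libraries.

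Of 41 measured interferon-stimulated genes outside the 37 members, 10 fell and 2 rose in labelled β-arrestin 2 -/- hypoxia, 29.3% called against 21.9% of all genes. By smallest p, Parp11 fell by 0.66 ± 0.11 (adjusted p = 0.00115), Lgals3bp by 0.56 ± 0.13 (adjusted p = 0.00866) and Epsti1 by 1.00 ± 0.25 (adjusted p = 0.0123), while Tgtp2, another immunity-related GTPase gene, rose by 1.46 ± 0.36 (adjusted p = 0.0103). Tgtp2 stood at 5.14, 6.76 and 5.49 CPM in normoxia and at 22.1, 13.5 and 12.3 CPM in hypoxia, with replicate 0 highest as for Igtp and Gbp7. The other gene that rose was Gbp5 (1.34 ± 0.34, adjusted p = 0.0127; named after its value was seen). Neither was called without hypoxia replicate 0. The other tested GTPase genes of this list were not called, with log2 changes of 1.55 ± 0.57 for Gvin1, 1.08 ± 0.43 for Gbp4, 0.89 ± 0.47 for Tgtp1, 0.36 ± 0.37 for Gbp8, 0.11 ± 0.27 for Gbp9 and -0.06 ± 0.63 for Gbp10.

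Of 6 chemokine genes induced by interferon gamma, 4 fell in labelled β-arrestin 2 -/- hypoxia, against 10.8% of all genes called lower. Cxcl10, which attracts T cells, stood at 5.09, 1.92 and 2.18 CPM in normoxia and at 0.477, 0.392 and 0.697 CPM in hypoxia and fell by 2.53 ± 0.63 (adjusted p = 0.0115). Cxcl9 stood at 5.24, 0.828 and 0.888 CPM in normoxia and at 0.260, 0.392 and 0.566 CPM in hypoxia and fell by 2.47 ± 0.67 (adjusted p = 0.0166). Most of its normoxia level came from replicate 0, without which Cxcl9, Cxcl10 and Ccl7 were not called. Ccl12 fell by 1.83 ± 0.46 (adjusted p = 0.0114) and Ccl7 fell by 2.49 ± 0.78 (adjusted p = 0.0333). Ccl12 (1.54 ± 0.45, adjusted p = 0.0436) and Ccl5 (1.16 ± 0.35, adjusted p = 0.0484) were higher under the label than in wild type normoxia, against 4% of all genes. Summed B and plasma cell markers were also higher there, and their part in these values was not tested.

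In wild type hypoxia 3 of 7 genes of the MHC class II list rose, H2-DMb1 by 0.76 ± 0.17 (adjusted p = 0.0221), H2-DMa by 0.78 ± 0.21 (adjusted p = 0.0479) and Ciita, the master regulator of the class, by 1.38 ± 0.38 (adjusted p = 0.0489). Of all genes, 2.85% were called higher in that comparison. In labelled β-arrestin 2 -/- hypoxia Ciita rose by 1.38 ± 0.38 (adjusted p = 0.0188) and H2-Aa fell by 0.70 ± 0.19 (adjusted p = 0.0195). In hypoxia H2-Aa (-1.08 ± 0.20, adjusted p = 0.0132) and H2-DMb1 (-0.92 ± 0.17, adjusted p = 0.0174) were lower under the label than in wild type. Of 17 class I presentation genes, H2-T23 alone changed in labelled hypoxia (it rose by 0.54 ± 0.18, adjusted p = 0.0451), and H2-K1 alone differed from wild type there (-0.99 ± 0.21, adjusted p = 0.0287). Of all genes, 21.9% were called between labelled hypoxia and labelled normoxia, and 0.923% between the label and wild type in hypoxia.

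In normoxia, where 0 members were called, 3 of the 41 other interferon-stimulated genes were higher under the label than in wild type. That is 7.32% of the list, against 9.49% of all genes called (4% higher, 5.49% lower). Xaf1, a proapoptotic interferon target, stood at 19.9, 18 and 21.8 CPM in wild type and at 128, 111 and 123 CPM under the label (2.60 ± 0.22, adjusted p = 6.99e-06), and it was higher in hypoxia too (2.29 ± 0.22, adjusted p = 2.32e-05). The others were Epsti1 (0.97 ± 0.25, adjusted p = 0.0292) and Ifi27l2a (1.39 ± 0.38, adjusted p = 0.0332). In β-arrestin 1 -/- lung 1 of the 41, Trim34a, was lower than in wild type in normoxia (-2.82 ± 0.21, adjusted p = 1.4e-06) and in hypoxia (-3.02 ± 0.22, adjusted p = 9.39e-07). Of all genes, 0.143% were called lower in normoxia and 0.117% in hypoxia. The positions of Xaf1 and Trim34a were not compared with those of Arrb2 and Arrb1. Whether their differences reflect DNA near the targeted genes was not tested. Hypoxia lowered 1 of the 41 in wild type, Parp11, by 0.44 ± 0.11 (adjusted p = 0.0345), against 1.92% of all genes called lower. In β-arrestin 1 -/- hypoxia Ifi205 fell by 1.35 ± 0.27 (adjusted p = 0.0129) and Phf11d rose by 0.73 ± 0.17 (adjusted p = 0.0303). Of all genes, 1.11% were called lower and 1.84% higher there.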

How the data were processed

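RNA of about 30 mg of frozen lung was enriched for poly(A) and sequenced as 18 libraries, with a kit that keeps no strand information per the labels' protocols, so overlapping antisense genes share reads. FastQC, TopHat and Cuffdiff were used with mm10, per the submitters' processing notes; no version is given in the sources used here. A file by the authors holds estimated counts of fragments, unnormalized, and 93.27% of its values were whole (among members, Parp9 and Ifi47 were fractional throughout). The same deposited files give FPKM. A deposited comparison table holds the Cuffdiff p-value and q-value and a test score, from which the direction was taken. The share of all genes that the authors call was not taken, so their counts of members have no background in any comparison.

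Rounded estimated counts were tested with edgeR 4.0.16 in R 4.3.3, in 1 model of all 18 libraries with TMM scaling, after filterByExpr had kept 15388 genes. The quasi-likelihood F-test gave the p-values, adjusted over these genes by Benjamini-Hochberg and called below 0.05. Any adjusted p is from that test unless named otherwise, and ± beside a log2 change is the SE. Features with the status HIDATA (5, no member) were dropped and those with FAIL (20) kept. The alternatives were DESeq2 1.42.0, edgeR with DESeq2's size factors, edgeR on unfiltered genes, limma 3.58.1 with a pseudocount of 1 or 0.1 added to FPKM (minimum FPKM of 1 in 3 libraries, or none), fitting the compared groups alone, a replicate block, and omission of each library. Omission of both libraries of lowest total, and the sum of Ifit3 with its copy, were chosen after seeing the data.

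Members and lists were chosen with earlier results of these data known. Per comparison the text names called members (up to 8 a direction by p) or, with none called, the 3 of smallest p, and up to 4 called genes of each other list. In simulated data for labelled β-arrestin 2 -/- hypoxia against normoxia (15253 genes), edgeR found 31.8% of 1.5-fold, 73.1% of 2-fold and 89.6% of 4-fold changes, and 4.4% of its calls were false. False calls were 17.4% for DESeq2 and 5.3% for limma on log2(FPKM + 1). Only 66, 67 and 67 genes were changed by these folds, whereas 21.9% of genes were called in the data. The simulated libraries of a group also had no difference in cell makeup. These shares are therefore not the power or error of the real comparison. Start regions are RefSeq's (GRCm38.p6). Gene coordinates are the authors' (mm10), counted from 1. Figures used matplotlib 3.10.9.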

Additional observations from a re-analysis of the deposited data

Results flagged for a closer look

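By the test of the difference itself (edgeR, adjusted over all genes), the hypoxia response differed between labelled β-arrestin 2 -/- and wild type lung for 1 of the 37 interferon-stimulated genes and for 8 of 106 tested genes of the other pathway lists (7.55%), against 6.05% of all genes. Values are the labelled response minus the wild type response on the log2 scale. The member was Mx1 (-1.75 ± 0.49, adjusted p = 0.048), lower in 3 of 3 labelled hypoxia libraries than in any labelled normoxia library. Negative differences were found for Irf5 (-1.39 ± 0.21, adjusted p = 0.0044), Epsti1 (-1.47 ± 0.36, adjusted p = 0.0285), H2-Aa (-1.25 ± 0.28, adjusted p = 0.0197), Socs3 (-1.16 ± 0.28, adjusted p = 0.0272), H2-DMb1 (-0.92 ± 0.25, adjusted p = 0.0393), Ptpn2 (-0.80 ± 0.17, adjusted p = 0.0178) and Tmem173 (-0.70 ± 0.17, adjusted p = 0.0266). Ifnlr1 had a positive difference (0.53 ± 0.15, adjusted p = 0.0456). Of these 9 genes, Irf5 alone kept its call in all 27 other settings, and Mx1 kept it in 7 of 25. The difference for Arrb1, a gene outside the lists, was 0.69 ± 0.17 (adjusted p = 0.0276), and its call was kept in 20 of 27 settings.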

How the results depend on the processing

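The number of members called for hypoxia against normoxia was 1 with DESeq2 in wild type (0 to 0 with each library left out). In β-arrestin 1 -/- lung it was 0 with limma on log2(FPKM + 1) without a filter, 0 with the compared groups alone, 0 without both libraries of lowest total, and 0 to 1 with each library left out. In labelled β-arrestin 2 -/- lung it was 6 without both libraries of lowest total and 2 to 14 with each library left out, with 14 called without β-arrestin 1 -/- hypoxia replicate 2. Between this line and wild type in normoxia it was 2 with DESeq2, 4 with the compared groups alone, and 0 to 3 with each library left out. For the difference of its hypoxia response from wild type it was 0 without a filter, 0 in each of the 3 limma fits, 0 with the replicate block, 0 without both libraries of lowest total, and 0 to 1 with each library left out. The limma fits with an FPKM minimum did not measure Mx1, the member called, so their 0 does not bear on its call. The cause of these changes in count was not tested. The share of all genes called in each setting is not given, here or in the results above, so a change in count is not read as particular to the members. Log2 differences of β-arrestin 1 -/- from wild type in hypoxia reversed without both libraries of lowest total to -0.0295 for Ifi35, -0.0878 for Bst2 and -0.00684 for Arrb2. With each library left out they ran from -0.0292 to 0.55 for Ifi35, from -0.0875 to 0.64 for Bst2 and from -0.00653 to 0.52 for Arrb2, and in normoxia from -0.00222 to 0.12 for Arrb2. Arrb1 of the labelled line in hypoxia reversed to 0.00133, 0.0016 and 0.00133 in the limma fits and ran from -0.14 to 0.0552 with each library left out (0.0498 without wild type hypoxia replicate 1).

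Correlations of deviations between same-numbered libraries ran from -0.212 to 0.464, with 7 of 21 pairs above 0.1 and in no comparison all 3, and the libraries were taken to share only a number. With the replicate block 8 members were called in labelled β-arrestin 2 -/- hypoxia. There Mx1 kept its call in all 25 settings that measured it, and Igtp lost it in 11 of 27. Depth limits Mx1, Oas3 and Mx2, with as few as 14, 15 and 26 fragments in a library.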
